A study of Mus musculus with 9 samples.

Results

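The 10 genes described here build the gap junctions and the intercalated disc of the mouse heart: the connexin genes Gja1, Gja4, Gja5 and Gjc1, the gap junction scaffold gene Tjp1, the N-cadherin gene Cdh2, and the desmosome genes Dsp, Dsg2, Pkp2 and Jup. They were chosen by name. Each was read from the transcript cluster (the set of probes for 1 transcript locus) whose only gene symbol is that gene, and each of the 10 had exactly 1 such cluster among 65534 clusters, of which 30087 genes have at least 1 of their own. The data are 9 single-colour Affymetrix Mouse Transcriptome Assay 1.0 arrays of total RNA from the left ventricle. The ventricle was divided into 3 zones, with 3 arrays each: the ischemic zone (IZ), the border zone (BZ) around it, and the non-ischemic zone (NIZ) of the same operated hearts. All came from 3 male C57BL/6 mice (C57BL/6J in the protocols) aged 8 weeks, in which the left anterior descending coronary artery was tied for 45 min and released for 24 h. No array came from an unoperated heart, so NIZ stands for tissue remote from the injury and not for a healthy heart. The labels do not say which arrays came from which mouse, so p-values measure the spread between these arrays.

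Heart muscle cells are joined end to end at intercalated discs. Connexin proteins form channels there that pass current from cell to cell, while N-cadherin in adherens junctions and desmosomal cadherins tied to the intermediate filaments hold the cells together mechanically. After infarction, gap junctions are known to be lost from the disc and to spread along the sides of surviving myocytes, and inherited faults in desmosome genes cause arrhythmogenic cardiomyopathy. Arrays of RNA measure transcript amounts and not where a protein lies.

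Promoter windows in RefSeq (assembly GRCm38.p6), from 250 bases before to 50 bases after the annotated start, matched 6 of the 10 genes by symbol: Gja1, Gja4, Gja5, Tjp1, Dsp and Jup. Each window was searched on both strands for 4 short motifs. That of AP-1, the Fos and Jun factor that responds to stress, was searched as TGANTCA. The GC box, bound by Sp factors, was searched as GGGCGG. Core promoters may carry a TATA box, which was searched as TATAAA. For the GATA factors of heart muscle the letters searched were AGATAA. Shown are the windows of Gja1, the main ventricular connexin, of Gja5, the connexin of atria and conduction fibres, and of Dsp, the gene whose level varied most within zones. All 3 genes lie on the plus strand, and capitals mark the matches, which did not overlap each other.
Gja1 (chr10:56377050-56377349): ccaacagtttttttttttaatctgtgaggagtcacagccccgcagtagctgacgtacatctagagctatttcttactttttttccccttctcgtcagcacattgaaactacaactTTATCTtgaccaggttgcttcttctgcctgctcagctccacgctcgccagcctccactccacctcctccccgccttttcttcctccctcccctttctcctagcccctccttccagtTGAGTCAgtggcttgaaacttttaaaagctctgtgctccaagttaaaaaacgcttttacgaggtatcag
Gja5 (chr3:97032152-97032451): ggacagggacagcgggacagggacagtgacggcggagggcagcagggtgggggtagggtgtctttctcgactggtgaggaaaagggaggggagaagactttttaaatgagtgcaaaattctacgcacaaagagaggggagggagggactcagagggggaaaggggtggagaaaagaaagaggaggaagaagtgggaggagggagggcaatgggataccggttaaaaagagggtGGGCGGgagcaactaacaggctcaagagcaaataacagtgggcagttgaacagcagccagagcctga
Dsp (chr13:38151044-38151343): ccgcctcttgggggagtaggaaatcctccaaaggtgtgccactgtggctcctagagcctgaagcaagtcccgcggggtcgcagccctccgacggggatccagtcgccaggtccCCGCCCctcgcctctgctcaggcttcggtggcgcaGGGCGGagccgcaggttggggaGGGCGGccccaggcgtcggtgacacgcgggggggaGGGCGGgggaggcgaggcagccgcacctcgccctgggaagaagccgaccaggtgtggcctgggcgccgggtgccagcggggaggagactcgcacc
The Gja1 window held 1 AP-1 match, whose first base lies at -19 from the start, and 1 GATA match on the minus strand at -135, with no GC box. AP-1 letters occur in 7.81% and GATA letters in 11.2% of the 32851 mouse windows of this length. The Gja5 window held 1 GC box, at -17. The Dsp window held 4 GC boxes, at -137 on the minus strand and at -102, -80 and -45 on the plus strand, against 1 in the Gja4 window and 2 each in those of Tjp1 and Jup; 35.7% of all windows hold at least 1. None of the 6 windows held the TATA letters, which occur in 13.6% of windows. Base composition followed the same order at its ends, with 73.0% G and C in the Dsp window and 47.7% in the Gja1 window. A match of letters is a description of the sequence and was not tied to any value below.

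The values are log2 levels made by RMA (robust multi-array average), so that a difference between zones is the log2 of a fold change. Array medians lay between 4.19 and 4.29, and all 10 genes were above the array's median on all 9 arrays. Source labels name heart, although one tag of the same labels is called brain. All 18 cardiomyocyte markers listed were above the array median on all 9 arrays, and Myh6, the adult cardiac myosin heavy chain, read 12.92 to 13.45. Markers of other cells differed between arrays. The mean of 12 monocyte and macrophage markers, set against its own 9-array mean, lay between -0.10 and 0.40 in IZ and between -0.11 and 0.53 in BZ, against -0.51 to -0.12 in NIZ. All 12 were higher in IZ than in NIZ and all 12 higher in BZ than in NIZ. The mean of 10 neutrophil markers was highest on BZ replicate 1 (1.65) and NIZ replicate 1 (1.53) and lowest on BZ replicate 3 (-1.63) and NIZ replicate 3 (-2.07). Markers of atrial myocytes stood high on BZ replicate 2 (0.77) and NIZ replicate 2 (1.62). In whole tissue, fewer cells of a type and less RNA per cell cannot be told apart.

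No gene of the 10 was called in any comparison. The test was limma on the zone means of all 9 arrays, with Benjamini-Hochberg adjustment over 65534 clusters at an adjusted p of 0.05, and it called 0 clusters (0%) in IZ against NIZ, in BZ against NIZ and in IZ against BZ. At an unadjusted p under 0.05 it took 2597 clusters in IZ against NIZ, 3457 in BZ against NIZ and 2517 in IZ against BZ. In IZ against NIZ these were 1.24% of all clusters on the higher side and 2.72% on the lower. The shares were 2.19% higher and 3.09% lower in BZ against NIZ, and 1.26% higher and 2.58% lower in IZ against BZ. Among the 10 genes only Cdh2 in IZ against NIZ was below that unadjusted level, where 1.24% of clusters lay on the higher side.

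Most of the 10 genes had a higher mean in IZ than in NIZ. Of the 10, 8 were higher, with a median difference of 0.14 and a range from -0.03 for Gjc1 to 0.29 for Cdh2, while 39.7% of all clusters and 45.7% of the 19912 genes above a filter on dim clusters were higher. In BZ against NIZ, 9 of 10 were higher, with a median of 0.06, where 51.5% of clusters were higher. In IZ against BZ, 6 of 10 were higher, with a median of 0.07, against 40.1% of clusters. The median difference of the filtered genes was 0.00 in IZ against NIZ, 0.01 in BZ against NIZ and -0.01 in IZ against BZ. The first pair of comparisons shares the NIZ arrays. With single arrays left out, 7 to 9 of the 10 were higher in IZ than in NIZ, and 6 to 10 were higher in BZ than in NIZ. The medians moved more: without NIZ replicate 1 that of IZ against NIZ was 0.05, that of BZ against NIZ was 0.10 without BZ replicate 1 and 0.04 without BZ replicate 2, and in IZ against BZ it was 0.04 without IZ replicate 1 and 0.03 without BZ replicate 1.

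**Figure D1:**
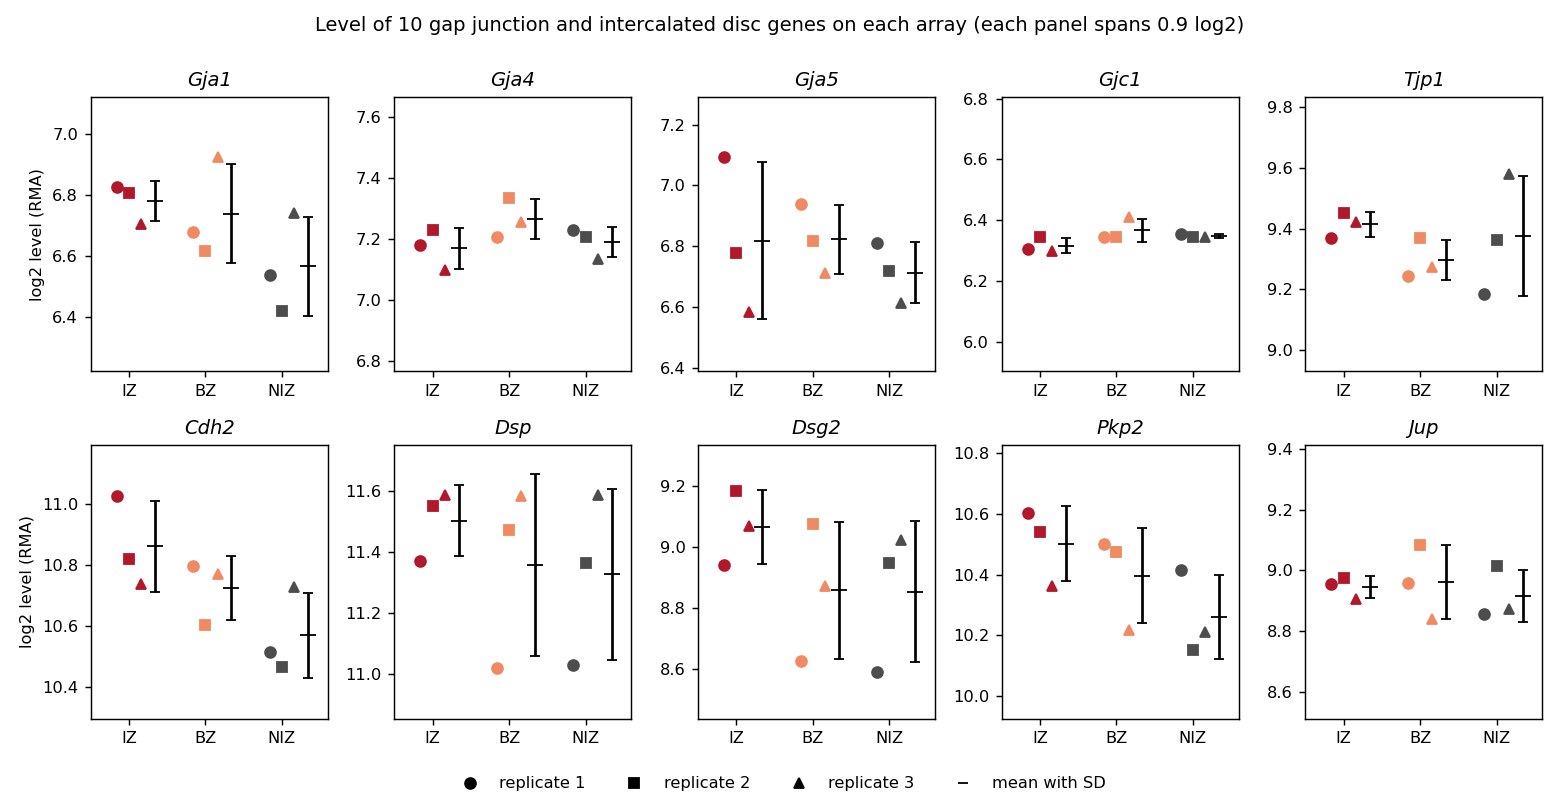
Log2 level (RMA) of each of the 10 genes on the 9 arrays, with IZ, BZ and NIZ from left to right and symbols for replicates 1 to 3; the bar beside each zone is the mean with its SD. Every panel spans 0.9 log2 around its own centre, so spread can be compared between panels and height cannot. Cdh2 is the gene whose IZ arrays all lie above its NIZ arrays, and Dsp and Dsg2 drop on replicate 1 of BZ and of NIZ.

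Gja1 encodes the main gap junction protein of ventricular muscle. Its level was 6.83, 6.81 and 6.70 on the IZ arrays and 6.68, 6.62 and 6.92 on the BZ arrays, against 6.54, 6.42 and 6.74 on the NIZ arrays. NIZ replicate 3 reached into the range of both other zones, and the remaining NIZ arrays lay below every IZ and BZ array. The IZ mean was 6.78 ± 0.07 and the NIZ mean 6.57 ± 0.16 (SD, n = 3 each), a difference of 0.21 (95% interval -0.03 to 0.46, limma adjusted p = 0.999, exact permutation p = 0.2, two-sided). With 3 arrays against 3 an exact p cannot go below 0.1. In BZ the mean was 6.74 ± 0.16, higher than in NIZ by 0.17 (-0.07 to 0.42, adjusted p = 0.854), which was the largest difference among the 10 genes in that comparison. Against BZ, IZ differed by 0.04 (-0.20 to 0.28). The left-out arrays moved these values both ways. Without NIZ replicate 2 the differences from NIZ were 0.14 for IZ and 0.10 for BZ, and without BZ replicate 3 that of BZ was 0.08. Without NIZ replicate 3 they came to 0.30 for IZ and 0.26 for BZ, with an adjusted p of 0.487 for IZ and 0.593 for BZ.

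Gja5 encodes the connexin of atrial muscle, of the fast conduction fibres and of arterial endothelium. It read 7.09, 6.78 and 6.59 in IZ and 6.94, 6.82 and 6.71 in BZ, against 6.81, 6.72 and 6.61 in NIZ. In each zone replicate 1 was highest and replicate 3 lowest, and the zones overlapped throughout. The differences were 0.11 in IZ against NIZ (-0.19 to 0.40) and 0.11 in BZ against NIZ (-0.19 to 0.41), and IZ against BZ came to 0.00 (-0.30 to 0.29). The IZ value rested on replicate 1: without it the IZ difference was -0.03, while without IZ replicate 3 it was 0.22. Without BZ replicate 1 the BZ difference was 0.05. On BZ replicate 2 and NIZ replicate 2, where atrial markers stood high, Gja5 lay between the other replicates of its zone. The part of those markers in the Gja5 values was not tested. The mean of 10 arterial endothelium markers lay between -0.14 and 0.08 in IZ and between -0.19 and 0.09 in BZ, against 0.05 to 0.07 in NIZ, and its part in the Gja5 values was not tested.

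Gja4, a connexin of vascular endothelium, had 7.18, 7.23 and 7.10 in IZ and 7.20, 7.33 and 7.26 in BZ, against 7.23, 7.20 and 7.13 in NIZ. All values fell within 0.24 of each other. BZ had the highest mean, 0.08 above NIZ (-0.04 to 0.20, adjusted p = 0.854), and IZ was lower than BZ by a difference of -0.10 (-0.22 to 0.02, adjusted p = 0.943). IZ and NIZ differed by -0.02 (-0.14 to 0.10). The interval therefore leaves room for a change of Gja4 between IZ and NIZ of no more than 0.14 on the log2 scale in either direction.

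Gjc1, the connexin of the sinoatrial and atrioventricular nodes and of the early embryonic heart, varied least. Its values were 6.31, 6.34 and 6.30 in IZ and 6.35, 6.34 and 6.41 in BZ, against 6.35, 6.34 and 6.34 in NIZ. The value was identical on 4 of the 9 arrays, so these arrays carry less information on Gjc1 than their number implies. Differences were -0.03 in IZ against NIZ (-0.11 to 0.04), 0.02 in BZ against NIZ (-0.06 to 0.10) and -0.05 in IZ against BZ (-0.13 to 0.03).

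Tjp1 encodes the scaffold protein that binds the tail of the Gja1 protein at the rim of the gap junction plaque. Its level was 9.37, 9.45 and 9.42 in IZ and 9.24, 9.37 and 9.27 in BZ, against 9.18, 9.36 and 9.58 in NIZ. The NIZ arrays spanned 0.40 and enclosed every array of both other zones. Tjp1 was the only gene of the 10 with a lower mean in BZ than in NIZ, by a difference of -0.08 (-0.30 to 0.14, adjusted p = 0.884), and without NIZ replicate 3 that difference was 0.02. IZ and NIZ differed by 0.04 (-0.18 to 0.26). In IZ against BZ the difference was 0.12 (-0.10 to 0.34).

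Cdh2 encodes N-cadherin, the adhesion molecule of the adherens junctions at the disc. Its level was 11.03, 10.82 and 10.74 in IZ and 10.80, 10.60 and 10.77 in BZ, against 10.52, 10.47 and 10.73 in NIZ. Every IZ array lay above every NIZ array, although the lowest IZ and the highest NIZ array were 0.01 apart. The means were 10.86 ± 0.15 in IZ, 10.72 ± 0.11 in BZ and 10.57 ± 0.14 in NIZ (SD, n = 3 each). IZ exceeded NIZ by 0.29, a fold of 1.22 (95% interval 1.04 to 1.44), with an unadjusted limma p of 0.020, an adjusted p of 0.999 and an exact permutation p of 0.1, the smallest that 3 against 3 allow. Higher without overlap in IZ against NIZ describes 1.78% of all clusters, and Cdh2 was 1 of the 10 genes. BZ lay between, 0.15 above NIZ (-0.08 to 0.39, adjusted p = 0.854) and 0.14 below IZ (interval of IZ minus BZ, -0.09 to 0.37, adjusted p = 0.943). Without NIZ replicate 3 IZ exceeded NIZ by 0.37 and BZ exceeded it by 0.23, with adjusted p-values of 0.335 for IZ and 0.642 for BZ. Without NIZ replicate 2 the differences from NIZ were 0.24 for IZ and 0.10 for BZ. Without IZ replicate 1, IZ exceeded NIZ by 0.21 and BZ by 0.05. With replicate 1 of all zones left out, IZ exceeded NIZ by 0.18. Gja1 and Cdh2 were both lowest on NIZ replicates 1 and 2. Macrophage markers had a higher mean level in IZ and BZ than in NIZ, as given above, and their part in the Cdh2 and Gja1 values was not tested.

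**Figure D2:**
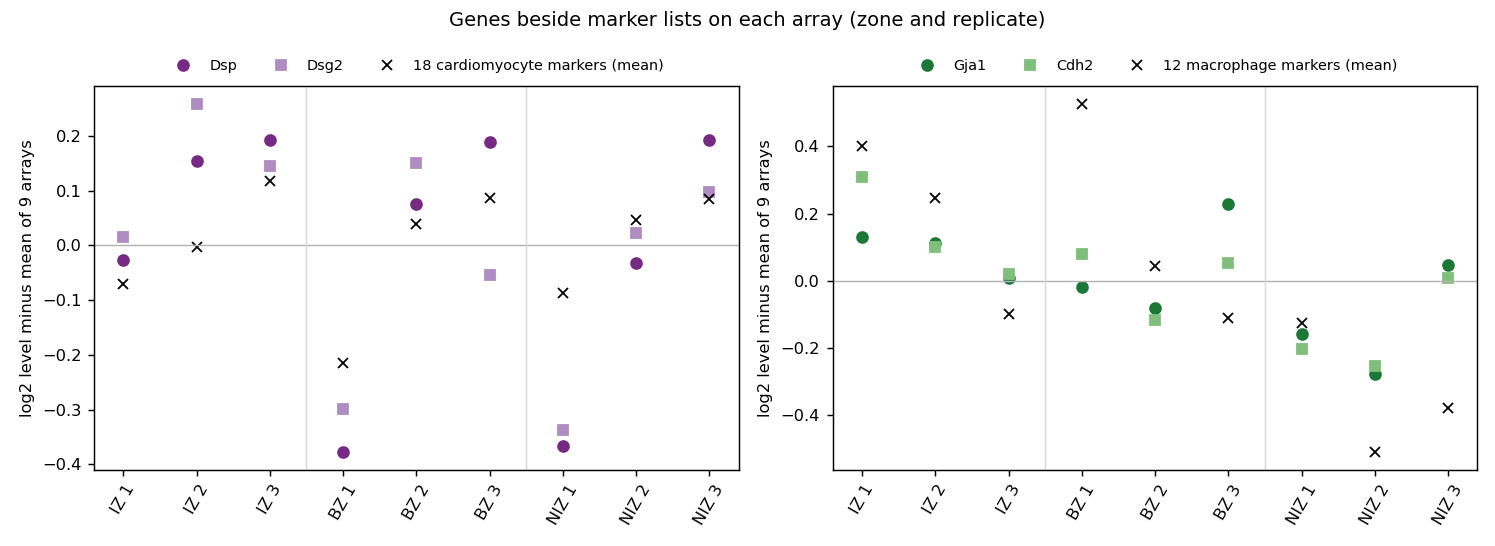
Left, Dsp and Dsg2 beside the mean of 18 cardiomyocyte markers; right, Gja1 and Cdh2 beside the mean of 12 macrophage markers; each is the log2 level on an array minus its own mean over the 9 arrays, with arrays grouped as IZ, BZ and NIZ. Dsp, Dsg2 and the cardiomyocyte mean (-0.21) are all low on BZ replicate 1. The macrophage mean is below 0 on all 3 NIZ arrays, where Gja1 and Cdh2 are low on replicates 1 and 2 but not on replicate 3. It is also below 0 on IZ replicate 3 (-0.10) and on BZ replicate 3 (-0.11), the array where Gja1 is highest.

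Dsp encodes desmoplakin, which ties the desmosome to the intermediate filaments. It read 11.37, 11.55 and 11.59 in IZ and 11.02, 11.47 and 11.59 in BZ, against 11.03, 11.36 and 11.59 in NIZ. The replicate 3 arrays of all 3 zones agreed to within 0.01, and the replicate 1 arrays of BZ and NIZ were the lowest of the 9. Its spread within zones, a pooled SD of 0.25, was the widest of the 10 genes, whose median was 0.14, against a median of 0.10 over 19912 genes. The IZ difference from NIZ was 0.18 (-0.25 to 0.60, adjusted p = 1.0), that of BZ from NIZ 0.03 (-0.39 to 0.45), and that of IZ from BZ 0.14 (-0.28 to 0.57). Without NIZ replicate 1 the IZ difference was 0.03, without NIZ replicate 3 it was 0.31, and without BZ replicate 1 the difference of IZ from BZ was -0.03.

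Dsg2 encodes desmoglein-2, the desmosomal cadherin of heart muscle. Its level was 8.94, 9.18 and 9.07 in IZ and 8.63, 9.08 and 8.87 in BZ, against 8.59, 8.95 and 9.02 in NIZ. As for Dsp, replicate 1 was the lowest array of each zone. IZ was 0.21 above NIZ (-0.13 to 0.55, adjusted p = 0.999) and 0.21 above BZ (-0.13 to 0.55, adjusted p = 0.943), which was the largest difference among the 10 genes in IZ against BZ. BZ and NIZ differed by 0.00 (-0.34 to 0.35). Both IZ differences shrank when the low array was left out, to 0.08 against NIZ without NIZ replicate 1 and to 0.09 against BZ without BZ replicate 1. The mean of the cardiomyocyte markers was -0.07 on IZ replicate 1, -0.21 on BZ replicate 1 and -0.09 on NIZ replicate 1, the lowest of each zone. With each array centred on that mean, the Dsg2 difference was 0.21 in IZ against NIZ and 0.16 in IZ against BZ. The marker mean hardly differed between IZ and NIZ, so centring could only move the first of these from 0.2123 to 0.2128. That value therefore says nothing on the part of these markers. The mean of 7 mesothelium markers was likewise lowest on replicate 1 of each zone (-0.46 in IZ, -0.61 in BZ and -0.74 in NIZ) and highest on replicate 3 (0.30 in IZ, 0.62 in BZ and 1.05 in NIZ). The part of these markers in the Dsp and Dsg2 values was not tested.

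Pkp2 encodes plakophilin-2, an armadillo protein of the desmosomal plaque. It read 10.60, 10.54 and 10.36 in IZ and 10.50, 10.47 and 10.22 in BZ, against 10.42, 10.15 and 10.21 in NIZ. The highest NIZ array lay above the lowest IZ array, so the zones overlapped. IZ exceeded NIZ by 0.24, a fold of 1.18 (95% interval 0.999 to 1.40, limma adjusted p = 0.999, exact permutation p = 0.2), and BZ exceeded NIZ by 0.14 (-0.11 to 0.38, adjusted p = 0.857). IZ and BZ differed by 0.10 (-0.14 to 0.35). Without BZ replicate 3 the difference of BZ from NIZ was 0.23 and that of IZ from BZ 0.02, and without NIZ replicate 2 that of BZ from NIZ was 0.08. Replicate 3 was the lowest array in IZ and in BZ, the opposite of Dsp.

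Jup encodes plakoglobin, which serves both desmosomes and adherens junctions. Its values were 8.96, 8.98 and 8.91 in IZ and 8.96, 9.08 and 8.84 in BZ, against 8.86, 9.02 and 8.87 in NIZ. The 9 values spanned 0.24 and the zones overlapped. Differences were 0.03 in IZ against NIZ (-0.13 to 0.19), 0.05 in BZ against NIZ (-0.12 to 0.21) and -0.02 in IZ against BZ (-0.18 to 0.15).

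**Figure D3:**
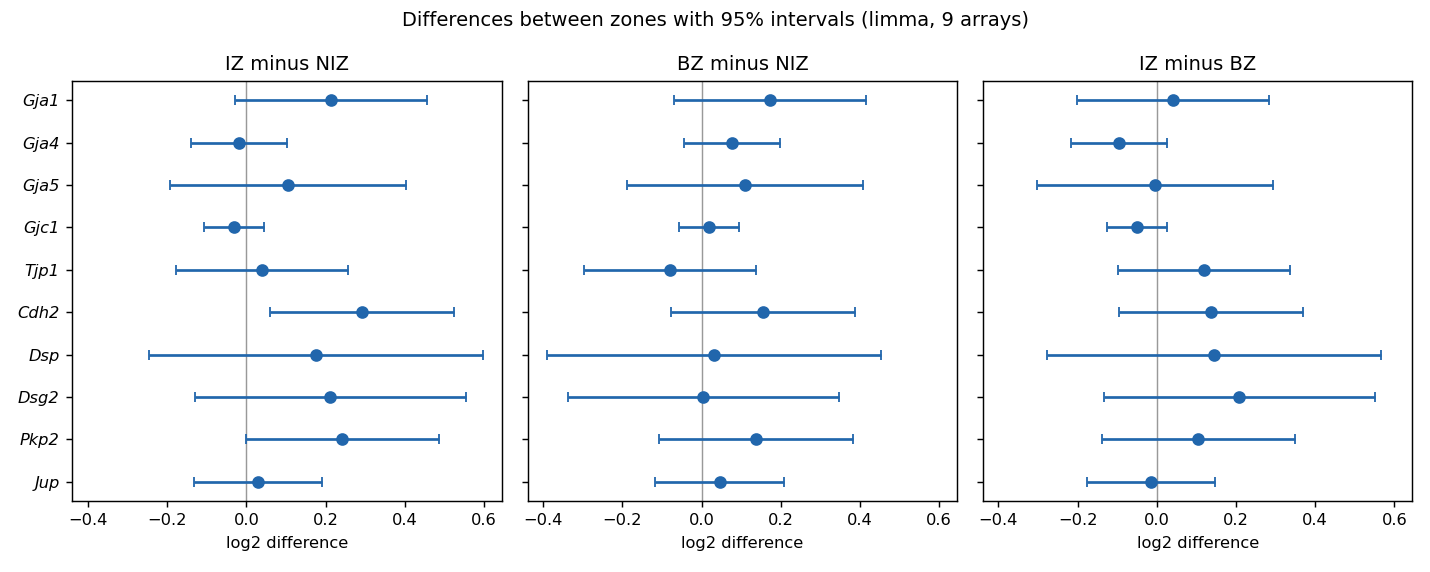
Log2 differences of the 10 genes in IZ minus NIZ, BZ minus NIZ and IZ minus BZ; points are limma estimates from 9 arrays and bars their 95% intervals. In this fit without a replicate block, the interval of Cdh2 in IZ minus NIZ (0.06 to 0.52) is the one of the 30 that does not include 0. That of Pkp2 in IZ minus NIZ starts just below 0 and reaches 0.49. With the block, the intervals of Cdh2, Dsg2 and Pkp2 in IZ minus NIZ and of Dsg2 in IZ minus BZ do not include 0. The limma adjusted p was 0.807 for each in IZ minus NIZ and 0.841 for Dsg2 in IZ minus BZ. In that fit 2.16% of all clusters in IZ minus NIZ and 2.08% in IZ minus BZ were higher at an unadjusted p under 0.05. Replicate numbers did not count as paired in every pair with IZ.

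These intervals come from the fit without a block on replicate number, and they bound what that fit could show. Over the 10 genes they reached at most a fold of 1.51 in IZ against NIZ (Dsp) and at most 1.37 in BZ against NIZ (Dsp), and the lowest bounds were -0.25 and -0.39 on the log2 scale, both for Dsp. For Gja1 the interval in IZ against NIZ ran from a fold of 0.981 to 1.37. In a fit blocked on replicate number, the log2 interval of Dsp was narrower. It then ran from -0.02 to 0.37 in IZ against NIZ and from -0.16 to 0.22 in BZ against NIZ. Only the Gjc1 intervals were wider with the block.

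BZ and NIZ arrays with the same replicate number varied together, so the difference was also taken within each number. Within all 3 numbers, 4 genes were higher in BZ, as were 10.4% of all clusters: Gja1 (0.14, 0.20 and 0.18 for replicates 1, 2 and 3), Gja5 (0.13, 0.10 and 0.10), Cdh2 (0.28, 0.14 and 0.04) and Pkp2 (0.08, 0.32 and 0.01). Gja1 and Gja5 were the most even of these. For Tjp1 the sign turned on replicate 3 alone (0.06, 0.01 and -0.31), and Dsp differed by -0.01, 0.11 and 0.00. A limma fit blocked on that number gave an adjusted p of 0.673 at the lowest among the 10 genes in BZ against NIZ, for Pkp2.

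**Figure D4:**
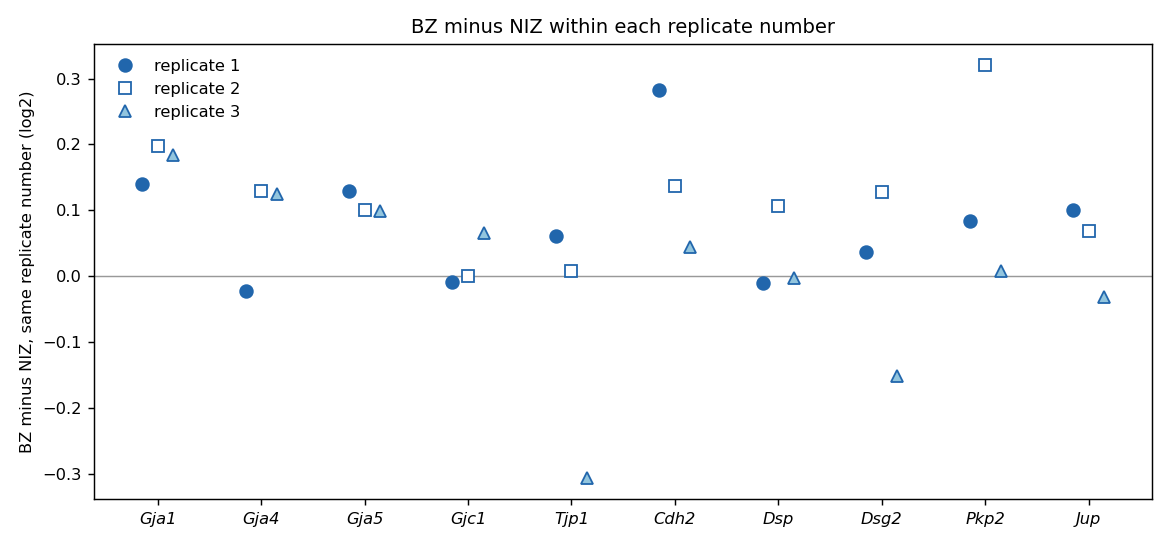
BZ minus NIZ (log2) for each of the 10 genes between arrays of the same replicate number, with 1 symbol per number. All 3 symbols lie above 0 for Gja1, Gja5, Cdh2 and Pkp2, and Tjp1 falls to -0.31 for replicate 3.

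The wider junction families showed no called gene either. Of 15 other connexin and pannexin genes with a cluster of their own, 7 were higher and 7 lower in IZ than in NIZ, with a median of 0.00 and 1 gene without a difference, and 14 were higher and 1 lower in BZ than in NIZ, with a median of 0.06. That BZ count leaned on 1 array: 10 of the 15 had their highest value of all 9 arrays on BZ replicate 3, and without it 10 were higher and 5 lower in BZ than in NIZ, with a median of 0.03. Gjd4, a connexin gene of skeletal muscle precursors, was the only one of the 15 whose BZ arrays did not overlap NIZ, as 2.51% of clusters did on the higher side, with 4.24, 4.24 and 4.72 in BZ against 4.24, 4.19 and 4.16 in NIZ, a difference of 0.20 (-0.10 to 0.51, adjusted p = 0.854). Its IZ arrays (4.49, 4.28 and 4.24) did not overlap NIZ either, the closest arrays differed by less than 0.01 in both cases, and its levels lay near the array medians. Gja1 itself was also highest on BZ replicate 3.

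Genes that bind, modify or degrade the Gja1 protein gave 6 higher and 8 lower of 15 in IZ against NIZ (median -0.02), and 5 higher and 9 lower in BZ against NIZ (median -0.02). Named after their values were seen, the ends of this list in IZ were Dbn1, an actin-binding protein (7.14 ± 0.19 in IZ and 7.50 ± 0.55 in NIZ), and Nedd4, a ubiquitin ligase (10.81 ± 0.04 in IZ and 10.61 ± 0.25 in NIZ, SD, n = 3 each). Neither passed, with an adjusted p of 0.999 for both. Of 13 other desmosome genes, 2 were higher and 10 lower in IZ than in NIZ (median -0.01), and 7 higher and 5 lower in BZ than in NIZ (median 0.01). The difference farthest from 0 was that of Ppl, periplakin, also singled out after its values were seen, at -0.39 in IZ (-0.78 to -0.01, adjusted p = 0.999). Without BZ replicate 3, 2 of these 13 were higher and 8 lower in BZ than in NIZ (median -0.01). With any other BZ or NIZ array left out, 6 or 7 were higher. Of 19 adherens junction genes, 6 were higher and 13 lower in IZ than in NIZ (median -0.03), and 10 higher and 8 lower in BZ than in NIZ (median 0.01).

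Other disc genes, among them channel, filament and scaffold genes, gave 7 higher and 8 lower of 15 in IZ against NIZ (median -0.02), and 6 higher and 9 lower in BZ against NIZ (median -0.02). Xirp1, which encodes an actin-binding repeat protein of the disc and was picked here for its size, averaged 9.34 ± 0.29 in IZ and 9.49 ± 0.40 in BZ, against 10.02 ± 0.92 in NIZ (SD, n = 3 each). The NIZ spread exceeded the difference of -0.68 (-1.69 to 0.34). Popdc3, a cyclic AMP-binding membrane protein gene chosen the same way, differed by -0.34 in BZ against NIZ (interval -0.63 to -0.06, limma adjusted p = 0.854).

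The transcription factors known to set connexin levels in the heart had 11 of 15 genes lower in IZ than in NIZ (median -0.10) and 11 of 15 lower in BZ than in NIZ (median -0.03). The BZ count depended on single arrays. Without BZ replicate 1 it was 8 higher and 7 lower (median 0.01). Without NIZ replicate 2 or 3 it was 7 higher and 8 lower. With BZ replicate 2, BZ replicate 3 or NIZ replicate 1 left out, 11 or 12 were lower. For at least 3 of these 15, the most that were named per list, the IZ arrays all lay below the NIZ arrays: Irx3, Tbx2 and Irx5. Over all clusters 4.55% did so. Irx3, a factor of the ventricular conduction system that represses Gja1 and raises Gja5 in mice, read 7.88, 7.95 and 7.95 in IZ against 8.12, 8.34 and 8.00 in NIZ, a difference of -0.23 (-0.42 to -0.03, limma adjusted p = 0.999). Tbx2, a repressor of Gja1 and Gja5 in the nodes and the atrioventricular canal, read 7.44, 7.33 and 7.34 in IZ against 7.61, 7.64 and 7.46 in NIZ, a difference of -0.20 (-0.33 to -0.07, limma adjusted p = 0.999). For Irx5 the difference was -0.09. None of the 3 passed the adjusted test. Conduction cell markers, a list of 8 measured genes that shares members with this one, gave 7 lower in IZ than in NIZ and 7 higher in BZ than in NIZ, and their part in these values was not tested.

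**Figure D5:**
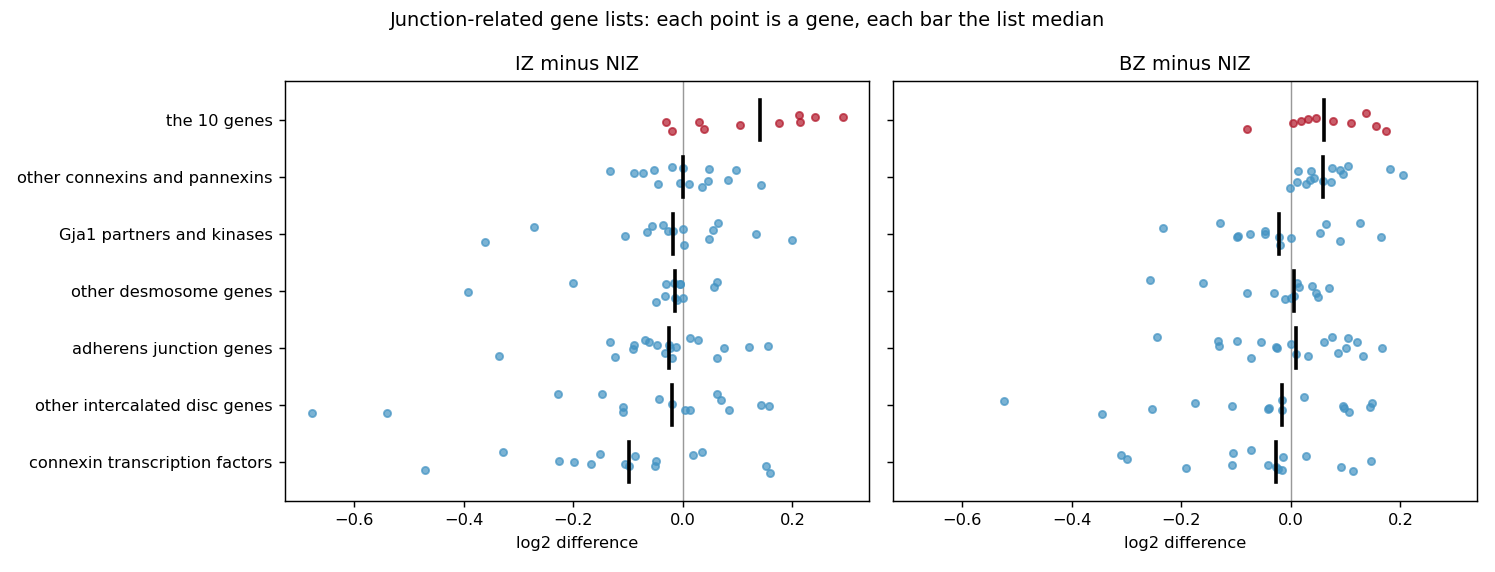
Log2 difference of each gene in the 10 genes and in 6 further junction-related lists, for IZ minus NIZ on the left and BZ minus NIZ on the right, on the same axis; each point is a gene and each black bar the list's median. The medians of the 10 genes are 0.14 and 0.06, and those of the other lists lie between -0.10 and 0.06.

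Among 15042 genes, the profiles over the 9 arrays nearest to that of Gja1 by Pearson's r were H2-Aa, a class II antigen presentation gene (r = 0.95), Get1, which helps insert tail-anchored membrane proteins (r = 0.94), and Cd72, a B-cell surface protein (r = 0.94). Get1 had the same value, 7.09, on IZ replicates 2 and 3, BZ replicates 1 and 2 and NIZ replicate 3. Its r therefore rests on fewer differing values. For Cdh2 the nearest were Gpx8 (r = 0.97), Cd72 (r = 0.95) and Erap1 (r = 0.95), so Cd72 stood near both Gja1 and Cdh2. For Dsg2 they were Actr8 (r = 0.97), Pygb (r = 0.97) and Cutc (r = 0.96). These are the highest of 15042 values of r, each over 9 arrays that share 3 zones, and are given as a description without a test.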

How the data were processed

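The authors deposited 1 table of log2 values for 9 arrays, which they made by RMA with Affymetrix Expression Console 1.0, and the labels also name Transcriptome Analysis Console 3.0. Each array was made from 100 ng of total RNA. The log2 values were used as deposited. In GEO's annotation of the array, 30414 clusters carry a single gene symbol. The genome build of the probes is not given in the sources used here. For a gene with several clusters the brightest by mean was taken.

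The main model was limma 3.58.1 (R 4.3.3), with 1 mean per zone, all 9 arrays and no block, with Benjamini-Hochberg adjustment over 65534 clusters. The fit was tested on simulated data. Exact permutation tests were two-sided. The filter on dim clusters kept 33293 clusters above the array median on at least 3 arrays. Same-numbered arrays deviated from their zone means together in BZ and NIZ (r over clusters 0.62, 0.20 and 0.52 for replicates 1, 2 and 3), which counts as pairing here, but not in every pair with IZ. Array number limits the precision. The number of arrays per zone was 3.

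The 10 genes, the further lists, the tests and the rule for named genes were chosen with earlier results of these data known. The rule named all 10 genes, up to 3 genes of each further list that passed or did not overlap NIZ, and the 3 nearest profiles of Gja1 and of the gene with the largest difference in each comparison. The study's methods compare zones by a one-way test with Bonferroni-corrected pairs, which was run as an alternative.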

Additional observations from a re-analysis of the deposited data

How the results depend on the processing

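None of the 10 genes was called under any of the alternatives run: the replicate block (fixed or random), median centring, quantile normalization, the filter on dim clusters, a trended, robust variance, a fit of only the 2 zones compared, the methods' test, centring on cardiomyocyte markers (chosen after seeing the data), and leaving out each array or each replicate number. The alternative of averaging several clusters of a gene gave no value, since each of the 10 has 1. Over all clusters, the methods' test unadjusted called 406 in IZ against NIZ, 574 in BZ against NIZ and 447 in IZ against BZ, and 0 each after Benjamini-Hochberg. With arrays left out, calls ranged from 0 to 216 in IZ against NIZ and from 0 to 173 in BZ against NIZ, both highest without NIZ replicate 3, and were 68 and 65 without replicate 3 of all zones.

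Many alternatives alter the test and not the difference itself. Of the 360 values that did differ from the reported ones, 37 had the opposite sign, spread over 13 of the 30 differences. Median centring turned Gja4 in IZ against NIZ (0.0051), Dsg2 in BZ against NIZ (-0.0039), and Gja5 (0.028) and Jup (0.017) in IZ against BZ. Cardiomyocyte centring turned Gja1 in IZ against BZ (-0.0040). With arrays left out, these differences crossed 0. In IZ against NIZ, Gja4 ran from -0.049 to 0.017, Gja5 from -0.033 to 0.22, Tjp1 from -0.057 to 0.14 and Jup from -0.0041 to 0.080. In BZ against NIZ, Gjc1 ran from -0.0042 to 0.033, Tjp1 from -0.18 to 0.034, Dsp from -0.12 to 0.20, Dsg2 from -0.13 to 0.12 and Jup from -0.016 to 0.11. In IZ against BZ, Gja1 ran from -0.036 to 0.17, Gja5 from -0.14 to 0.11, Dsp from -0.026 to 0.26 and Jup from -0.075 to 0.046. The cause was not tested.

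Same-numbered arrays of IZ correlated at 0.36, 0.08 and 0.25 with NIZ and at 0.36, 0.06 and 0.20 with BZ. Pairs with different numbers lay between -0.28 and 0.03 for IZ with NIZ and between -0.31 and 0.17 for IZ with BZ. Each IZ array thus correlated most with its own number, but less than BZ did with NIZ. Whether the IZ numbers mark the same hearts was not tested. With the replicate block, clusters called stayed at 0 in all 3 comparisons. Unadjusted limma p-values in IZ against NIZ were then 0.011 for Pkp2, 0.022 for Cdh2 and 0.027 for Dsg2 (adjusted p = 0.807 each). In that comparison 2.16% of clusters were below 0.05 and higher. For Dsg2 in IZ against BZ the unadjusted limma p was 0.029 (adjusted p = 0.841), where 2.08% of clusters were below 0.05 and higher.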
